A study of Homo sapiens with 8 samples.

Results

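Complexes II, III, IV and V are the later machines of mitochondrial oxidative phosphorylation, and most of their subunits are encoded in the nucleus. The nuclear-encoded subunits described here are the protein-coding rows of the deposited count table named SDHA to SDHD, UQCR followed by any suffix, CYC1, COX4 to COX8 followed by a letter, or ATP5 followed by any suffix. This rule uses names alone and found 52 of 58735 genes: 4 of complex II, 10 of complex III, 17 of complex IV and 21 of complex V. A filter on low counts left 46 of the 52 for testing, namely 4, 10, 13 and 19. All 8 cultures were SV-HUC1, an established cell line made from normal human urothelium by immortalisation with SV40. Untreated cultures formed the control group (4 libraries), and cultures kept 24 h in medium with glucose oxidase at 20 mU per ml formed the treated group (4 libraries), each group numbered 1 to 4 as biological replicates from 4 independent experiments. Glucose oxidase makes hydrogen peroxide while it consumes glucose, and the series speaks of low-grade oxidative stress. Neither peroxide alone nor inactivated enzyme was included as a group, so effects of peroxide and of glucose use cannot be told apart.

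Complex II, succinate dehydrogenase, passes electrons from succinate to ubiquinone and is also an enzyme of the citric acid cycle. Complex III moves electrons from ubiquinol to cytochrome c, complex IV moves them from cytochrome c to oxygen, and complex V uses the resulting proton gradient to make ATP. In complexes III and IV the catalytic parts are surrounded by small nuclear-encoded subunits that take no direct part in electron transfer, while complex II has no subunit encoded in mitochondrial DNA.

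Total counts ran from 21437267 to 27183692 per library, and gene levels are given as CPM, the counts of a gene relative to the library total, scaled by TMM unless a sentence says otherwise. Of 12 urothelial and epithelial markers, 9 stood at 5 CPM or more in all 8 libraries, while UPK3A was listed at 0.11 CPM in control 3 and had no count elsewhere, and TP63 stayed at or below 1.47 CPM. The summed level of the 12 markers was 5284 to 7297.6 CPM in control libraries and 3913 to 4407 CPM in treated libraries, without overlap. At each replicate number KRT5, KRT7, KRT8, KRT19 and EPCAM were lower in the treated library, while GATA3 and CDH1 were higher. The remaining markers kept no single direction. The part of these differences in the results below was not tested. Defining markers of other cell types were low: none of 3 endothelial and none of 4 leukocyte genes reached 5 CPM in all libraries, and of 4 fibroblast genes only COL1A1 did. Controls 3 and 4 and treated 3 and 4 stood apart from replicates 1 and 2 in expression, a division that is not in the labels.

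Most nuclear subunits of complexes III, IV and V were lower in the treated libraries. The largest falls fitted with a replicate block were those of UQCRB, COX6C, COX7A2 and ATP5ME, between 41.8 and 44.6%. Between the libraries numbered 4 these genes differed less, by -0.08 (UQCRB) to -0.31 (COX6C) on the log2 scale. All are small non-catalytic subunits, but others of that kind, COX8A (-0.11) and COX5A (-0.20), changed little, and ATP5F1E of the catalytic head of complex V changed by -0.76. With replicate number as a block in the edgeR quasi-likelihood fit, 26 of the 46 tested subunits fell and 0 rose at an adjusted p below 0.05. Among all 17413 genes tested, 6.97% fell and 7.51% rose. With libraries scaled by total counts in place of TMM, 3.07% fell and 9.62% rose, the median of all genes was 0.10, and 18 subunits fell while COX6B2 rose, with a median of -0.37 over the subunits. The median change was -0.48 on the log2 scale over the 46 subunits and -0.01 over all genes, and 42 of the 46 fitted changes were negative. The summed level of the 52 subunits was 8192, 5559, 14738 and 10775 CPM in controls 1 to 4, and 5885, 4052, 8492 and 9149 CPM in treated libraries 1 to 4. Each treated culture was below the control of its own number, with changes of -28.2, -27.1, -42.4 and -15.1%, but the 2 groups overlapped because controls 1 and 2 lay below treated 3 and 4. With total counts the changes were -26.2, -27.8, -28.5 and -8.62%, so that pair 3 no longer stood apart from pairs 1 and 2, and only control 2 lay below treated 3 and 4. In such bulk libraries less RNA per cell and fewer cells with the RNA cannot be told apart.

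The tests differed in how many subunits they called. In the edgeR fit without a block, 0 of the 17413 genes passed, the adjusted p of the 46 subunits ran from 0.658 to 0.980, and 2 of them, COX4I1 and ATP5S, had an unadjusted p below 0.05 (3.58% of all genes were lower and 3.79% higher at that level). DESeq2 without a block also called 0 of the subunits. In the authors' deposited table, 46 of 51 subunits had a log2 fold change below 0, 3 had a p-value below 0.05 and 0 had an adjusted p-value below 0.05, where the smallest was 0.495 for COX4I1. When the block was replaced by a single term that set replicates 1 and 2 apart from replicates 3 and 4, 7 of the 46 subunits fell: UQCRB, COX6C, COX7A2, COX6B1, ATP5PO, ATP5IF1 and ATP5MC1 (3.07% of all genes fell and 3.72% rose in that fit). Adding a correction for gene length to that term gave 7 that were only partly the same: UQCRB, COX6C, COX7A2, ATP5PO, ATP5MC3, ATP5S and SDHC. In that fit 3.46% of all genes fell and 3.53% rose. DESeq2 with the block called 31 subunits lower and 0 higher (8.6 and 7.99% of the 15098 genes it gave an adjusted p). Leaving out replicate 3 from the blocked edgeR fit left 11 of the 26 calls (2.85% of all genes fell) and leaving out replicate 1 left 15 (4.17%), while 21 were left without replicate 2 (3.71%) and 23 without replicate 4 (5.12%). UQCRB, COX6C, COX7A2 and ATP5PO fell under the block and under each of the 12 alternatives run on that fit, with a largest adjusted p of 0.0499, that of UQCRB with the term for the sets of replicates. Below, "fell" and "rose" refer to the blocked edgeR fit.

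**Figure D1:**
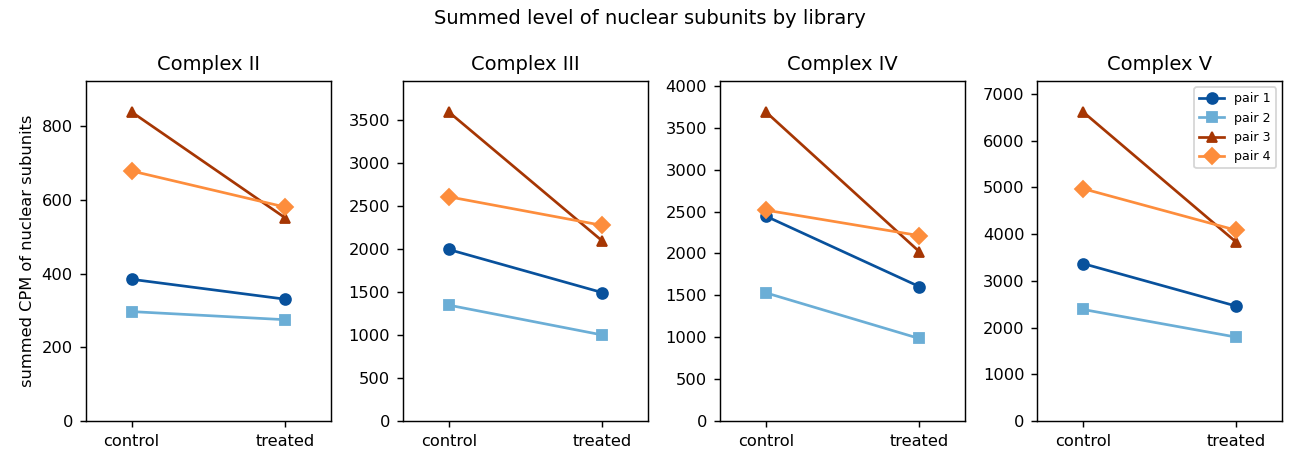
Summed TMM-scaled CPM of the nuclear subunits of each complex (vertical axis, starting at 0) in control and treated libraries, with a line joining libraries of the same replicate number. Each of the 16 lines goes down, pair 3 falls most steeply in every complex, and replicates 3 and 4 lie above replicates 1 and 2 in each group.

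Under TMM scaling the direction was shared by the 4 pairs while the size was not. Pair medians over the 46 subunits were -0.42, -0.42, -0.80 and -0.23 on the log2 scale for pairs 1 to 4. A lower level in all 4 pairs was found for 35 of the 46 subunits, against 17.1% of all genes. Pair 3 held the largest fall for 34 subunits and pair 4 the smallest absolute change for 31. Control 3 was the highest of the 8 libraries for 40 subunits and treated 2 the lowest for 37. Controls 3 and 4 both exceeded controls 1 and 2 for 29 of the 46 subunits and for 33.0% of all genes. The ratio of the mean of controls 3 and 4 to that of controls 1 and 2 had a median of 1.75, from 0.30 for COX7A1 to 3.47 for UQCRC2. Treated libraries all below all controls were seen for 1 subunit, ATP5S (2.6% of all genes), and treated libraries all above all controls for 0 (2.42% of all genes).

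**Figure D2:**
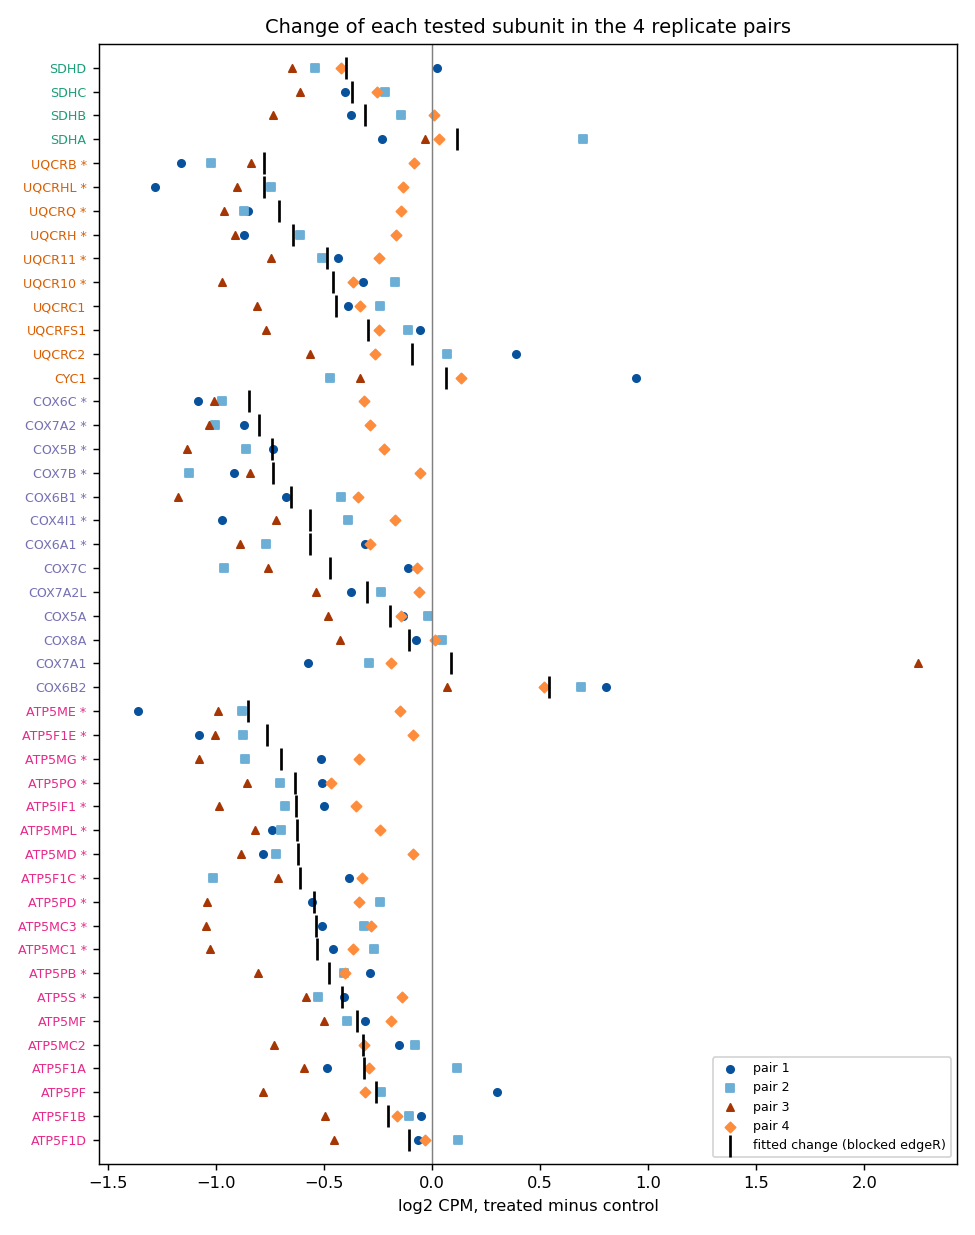
Difference in log2 CPM between treated and control libraries of the same replicate number (horizontal axis) for each of the 46 tested subunits, ordered by complex and by fitted change, with a black bar for the change fitted with the block and an asterisk for an adjusted p below 0.05. Pair 3 lies farthest left in most rows, pair 4 nearest 0, and the bars of COX6B2, SDHA, COX7A1 and CYC1 lie right of 0.

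Promoter letters are shown for subunits that moved together and for one that did not, since many respiratory chain promoters are known to bind the ETS factor GABP and the factor NRF1. The letters searched on both strands in the 250 bases before each RefSeq start (GRCh38.p14) were CCGGAAG for ETS factors, GCGC and TGCGC with any 1 base between them for NRF1 and AAGATGGC for YY1; no match of one overlaps another in the sequences printed. RefSeq promoters were matched by symbol for 36 of the 52 subunits. The others were ATP5F1B, ATP5F1D, ATP5MC3, ATP5MD, ATP5MF, ATP5MF-PTCD1, ATP5MGL, ATP5MPL, ATP5S, COX4I2, COX6C, COX7A1, CYC1, SDHC, UQCRB and UQCRHL. The ETS letters stood in 11 of the 36 windows (30.6%), against 8.82% of 27305 promoters and 11.8% of the 15843 protein-coding ones. The NRF1 letters stood in 9 of 36 (25%), against 5.53 and 7.65%, and the YY1 letters in 1 of 36 (2.78%), against 1.37 and 1.39%. At least one of these was present in 10 of 19 subunits that fell (52.6%) and in 7 of 14 tested subunits that did not pass (50.0%). The stretches below are the part of each window that lies outside the deposited gene, 5′ to 3′ in the direction of the gene, with the searched letters in capitals. They are UQCR11 (chr19:1605491-1605712, minus strand), COX5B (chr2:97645812-97646039, plus strand) and ATP5ME (chr4:674339-674526, minus strand), which fell, and SDHA (chr5:218070-218240, plus strand), which did not pass. Only sufficiently long stretches that hold searched letters were eligible, so the presence of letters in them was fixed by the choice. Among those eligible, the called gene of smallest p was taken in complexes III, IV and V, and the gene of largest p in complex II. The windows of COX7A2, COX7B, ATP5MG, ATP5F1E and ATP5IF1, which also fell, held none of the letters.
UQCR11: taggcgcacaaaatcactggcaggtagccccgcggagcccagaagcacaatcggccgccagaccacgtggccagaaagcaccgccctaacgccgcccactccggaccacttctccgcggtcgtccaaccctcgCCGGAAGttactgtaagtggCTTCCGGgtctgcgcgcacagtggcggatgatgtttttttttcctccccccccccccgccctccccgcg
COX5B: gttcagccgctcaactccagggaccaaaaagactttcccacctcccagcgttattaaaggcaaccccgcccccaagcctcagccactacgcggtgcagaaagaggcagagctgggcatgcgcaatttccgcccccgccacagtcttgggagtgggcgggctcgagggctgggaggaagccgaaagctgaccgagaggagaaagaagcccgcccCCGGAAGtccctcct
ATP5ME: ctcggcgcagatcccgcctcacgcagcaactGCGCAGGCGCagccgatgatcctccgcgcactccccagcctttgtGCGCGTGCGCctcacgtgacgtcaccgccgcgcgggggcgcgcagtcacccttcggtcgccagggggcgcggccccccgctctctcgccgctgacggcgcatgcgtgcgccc
SDHA: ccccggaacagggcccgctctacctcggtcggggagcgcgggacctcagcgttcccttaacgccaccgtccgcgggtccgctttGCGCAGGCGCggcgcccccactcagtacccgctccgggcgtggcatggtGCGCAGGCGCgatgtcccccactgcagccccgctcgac
In these stretches UQCR11 carries the ETS letters once on each strand, COX5B carries them once, and ATP5ME and SDHA each carry the NRF1 letters at 2 places. The full windows of 250 bases hold more for UQCR11, with 2 NRF1 matches as well, and for SDHA, with 4 NRF1 matches. A run of these letters is a description of the sequence and does not show binding.

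In complex II, 0 of 4 subunits passed the test, and the median change was -0.34. SDHA, the flavoprotein that oxidises succinate, was at 58.2, 44.4, 67.2 and 74.6 CPM in controls 1 to 4 and at 49.5, 72.0, 65.7 and 76.3 CPM in treated libraries 1 to 4. Its groups overlapped almost fully and its change was 0.11 ± 0.15 (log2, SE; adjusted p = 0.673). SDHC, which with SDHD anchors the enzyme in the inner membrane, was at 87.8, 70.3, 172 and 145 CPM in control libraries and at 66.4, 60.4, 112 and 121 CPM in treated libraries (ENSG00000143252, chr1:161314257-161375340). SDHC was lower in each pair, with a change of -0.37 ± 0.14 and an adjusted p of 0.0734. SDHD (-0.40, adjusted p = 0.0790) and the iron-sulfur subunit SDHB (-0.31, adjusted p = 0.167) had changes of like size that did not pass. The complex II sum was lower in the treated library of each pair, with changes of -14.02, -7.42, -34.2 and -14.4%. Whether complex II differed from the other complexes in its change was not tested.

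In complex III, 6 of 10 subunits fell, and these were the 5 small supernumerary subunits UQCRB, UQCRQ, UQCRH, UQCR10 and UQCR11 together with UQCRHL. UQCRB (ENSG00000156467, chr8:96225920-96235634), a subunit next to the ubiquinone site, stood at 338, 175, 461 and 281 CPM in control libraries and 151, 85.8, 258 and 265 CPM in treated libraries. Log2 differences of -1.16, -1.03, -0.84 and -0.08 in the pairs show that pair 4 differed little, and the fitted change was -0.78 ± 0.17 (adjusted p = 0.00297). UQCRQ (ENSG00000164405, chr5:132866560-132868031) went from 404, 188, 532 and 341 CPM to 223, 103, 273 and 309 CPM in the same order, a change of -0.71 ± 0.16 (adjusted p = 0.00458). UQCRH, the acidic hinge protein that helps cytochrome c1 meet cytochrome c, was at 369, 175, 652 and 435 CPM in control libraries and 202, 114, 346 and 386 CPM in treated libraries (ENSG00000173660, chr1:46303631-46316776). Its change was -0.64 ± 0.16 (adjusted p = 0.00874), and, as for UQCRB and UQCRQ, treated 3 and 4 stood above control 2, so that the groups overlapped. UQCR11 (-0.49, adjusted p = 0.0192) and UQCR10 (-0.46, adjusted p = 0.0351) fell less, and neither passed after correction for gene length.

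The redox and core subunits of complex III did not pass. CYC1, the cytochrome c1 that hands electrons to cytochrome c (ENSG00000179091, chr8:144095027-144097525), was at 109, 206, 202 and 176 CPM in control libraries and 209, 149, 160 and 193 CPM in treated libraries. It was higher in pairs 1 and 4 and lower in pairs 2 and 3, with a change of 0.06 ± 0.18 (adjusted p = 0.861). The Rieske iron-sulfur protein UQCRFS1 changed by -0.30 (adjusted p = 0.210), and the core proteins UQCRC1 and UQCRC2 by -0.45 (adjusted p = 0.0573) and -0.09 (adjusted p = 0.764). DESeq2 with the block called UQCRC1 lower (adjusted p = 0.0129). The median change over the 5 small subunits was -0.64, over the 2 core proteins -0.27 and over the 2 redox subunits -0.12. These classes differ in length, with median longest coding transcripts of 916, 2300 and 2357.5 bases. After correction for that length the medians were -0.44, -0.21 and -0.05, and 2 of the 5 small subunits were lower. The difference between these classes was not tested.

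In complex IV, 7 of 13 tested subunits fell: COX6C, COX7A2, COX5B, COX7B, COX6B1, COX6A1 and COX4I1. COX6C (ENSG00000164919, chr8:99873200-99894062), a small membrane subunit, was at 274, 127, 417 and 258 CPM in control libraries and 129, 64.6, 207 and 208 CPM in treated libraries. It lost about the same factor in pairs 1 to 3 and less in pair 4, and its change of -0.85 ± 0.16 had the smallest adjusted p of the 46 subunits (0.000967). COX7A2 (ENSG00000112695, chr6:75237675-75250323), the form of subunit 7A found in most tissues, went from 224, 127, 380 and 239 CPM to 123, 63.0, 186 and 196 CPM, a change of -0.80 ± 0.16 (adjusted p = 0.00137). COX5B (ENSG00000135940, chr2:97646040-97648383), a zinc-binding subunit on the matrix side, went from 338, 177, 517 and 329 CPM to 203, 97.6, 235 and 282 CPM, a change of -0.74 ± 0.16 (adjusted p = 0.00313). In all 3 genes every treated culture was below the control of its number, and treated 3 and 4 were above control 2. COX7B (-0.74) and COX6B1 (-0.66) moved by like amounts, with adjusted p of 0.00341 and 0.00507, and COX7C (-0.48, adjusted p = 0.0590), COX7A2L (-0.30), COX5A (-0.20) and COX8A (-0.11) did not pass.

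Complex IV has several subunits with tissue-specific forms, and in these cells one form dominated each family. COX4I1, the common form of the subunit that binds ATP as a regulator, was at 447, 249, 448 and 337 CPM in control libraries and 227, 190, 271 and 299 CPM in treated libraries, and fell by 0.57 on the log2 scale (adjusted p = 0.0188). Its lung-type paralog COX4I2 had 16 counts over the 8 libraries and was not tested. COX6A1 stood at 211, 163, 391 and 288 CPM and then 170, 95.4, 211 and 236 CPM, and fell by 0.56 (adjusted p = 0.0151), while the heart and muscle form COX6A2 had 0 counts. The testis forms COX8C and COX7B2 had 14 and 6 counts.

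COX6B2, the testis form of subunit 6B, was the member with the largest change against the others. It was at 4.15, 6.17, 4.37 and 3.08 CPM in control libraries and 7.32, 10.01, 4.58 and 4.43 CPM in treated libraries, higher in all 4 pairs and with overlapping groups. The change of 0.54 ± 0.20 did not pass under TMM with the block (adjusted p = 0.0673), and it passed with total counts (adjusted p = 0.0437) and with the correction for transcript length (adjusted p = 0.0423). Its common counterpart COX6B1 went from 77.4, 55.5, 247 and 161 CPM to 48.4, 41.4, 109 and 127 CPM. Per length, COX6B2 made up 1.21 ± 1.04% of the FPKM of the pair in control libraries and 2.76 ± 2.26% in treated libraries (SD, n = 4), and 30.9% of its exon length is shared with AC020922.1 on the same strand. COX7A1, the heart and muscle form of subunit 7A, stayed at or below 1.297 CPM and its 0.111 CPM in control 3 gave pair 3 a change opposite to that of the other pairs. COX7A2L, a relative of COX7A2 that joins complexes III and IV in supercomplexes, was at 190, 113, 194 and 138 CPM in control libraries and 146, 95.5, 134 and 132 CPM in treated libraries and did not pass (adjusted p = 0.163).

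**Figure D3:**
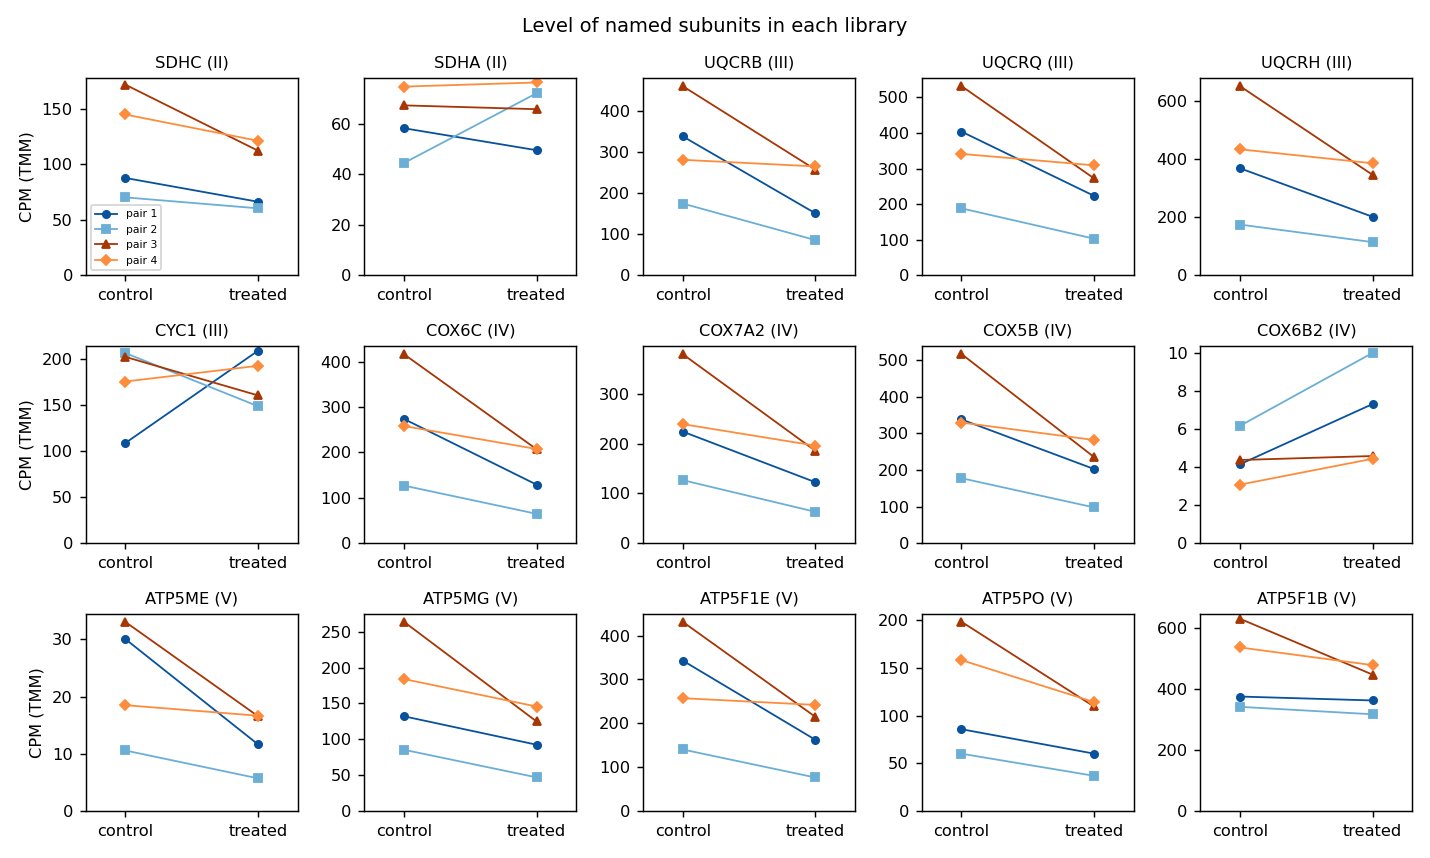
TMM-scaled CPM (vertical axis, starting at 0) of 15 subunits in control and treated libraries, with a line joining libraries of the same replicate number. UQCRB, COX6C and ATP5ME fall steeply in pairs 1 to 3 and little in pair 4, COX6B2 rises in each pair and reaches at most 10.01 CPM, and the lines of SDHA and CYC1 cross.

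In complex V, 13 of 19 tested genes fell and all 19 fitted changes were negative. Of the 5 small membrane subunits that hold the enzyme in dimers, 4 fell (ATP5ME, ATP5MG, ATP5MPL and ATP5MD), and ATP5MF (-0.35, adjusted p = 0.0863) did not pass. ATP5ME (ENSG00000169020, chr4:672436-674338), subunit e, went from 30.1, 10.6, 33.1 and 18.5 CPM to 11.7, 5.71, 16.6 and 16.7 CPM. Treated 2 was the lowest library and the groups overlapped, and the change of -0.85 ± 0.17 was the largest fall of the 46 (adjusted p = 0.00144). ATP5MG (ENSG00000167283, chr11:118401154-118431496), subunit g, went from 132, 85.3, 264 and 184 CPM to 92.3, 46.8, 125 and 146 CPM, a change of -0.70 ± 0.15 (adjusted p = 0.00298). Exons of MYL5 on the other strand cover 61.6% of the exon length of ATP5ME, and without the strand setting of the counting their reads cannot be told apart.

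In the catalytic F1 head, 2 of 5 subunits fell, ATP5F1C and ATP5F1E, which form the central rotor stalk with ATP5F1D. ATP5F1E (ENSG00000124172, chr20:59025467-59032382), the epsilon subunit, went from 343, 140, 432 and 257 CPM to 162, 76.3, 215 and 242 CPM, a change of -0.76 ± 0.17 (adjusted p = 0.00301). ATP5F1C, the gamma subunit, fell by 0.61 (adjusted p = 0.0154). The alpha and beta subunits ATP5F1A and ATP5F1B, which bind the nucleotides, changed by -0.32 (adjusted p = 0.209) and -0.20 (adjusted p = 0.422), and the delta subunit ATP5F1D by -0.11 (adjusted p = 0.663). ATP5F1B was at 375, 341, 630 and 536 CPM in control libraries and 362, 317, 447 and 478 CPM in treated libraries, so that pairs 1 and 2 hardly differed.

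Of the 4 peripheral stalk subunits, which keep the head from turning, 3 fell: ATP5PO, ATP5PD and ATP5PB. ATP5PO, the subunit that confers oligomycin sensitivity, was at 85.7, 59.999, 198 and 158 CPM in control libraries and 60.1, 36.8, 109 and 114 CPM in treated libraries, a change of -0.64 ± 0.14 (adjusted p = 0.00349). ATP5PF changed by -0.26 and did not pass (adjusted p = 0.284). The 3 genes ATP5MC1, ATP5MC2 and ATP5MC3 encode the same mature c subunit of the membrane rotor ring, and ATP5MC1 (-0.53) and ATP5MC3 (-0.54) fell, while ATP5MC2 (-0.32, adjusted p = 0.135) did not pass. ATP5MC1 went from 59.7, 46.7, 177 and 145 CPM to 43.4, 38.7, 86.8 and 112 CPM. ATP5MC3 went from 173, 120, 509 and 347 CPM to 121, 96.1, 246 and 285 CPM. In both genes controls 3 and 4 were far above the other controls, by a mean ratio of 3.03 for ATP5MC1 and 2.92 for ATP5MC3. By the authors' FPKM, ATP5MC1, ATP5MC2 and ATP5MC3 gave 39.7 ± 1.9, 19.4 ± 1.7 and 40.9 ± 2.1% of the c subunit level in control libraries (SD, n = 4). In treated libraries the shares were 38.6 ± 2.0, 21.9 ± 2.6 and 39.5 ± 1.7%, so that the group means differed by about the replicate spread. At each replicate number, however, the ATP5MC2 share was higher in the treated library, though by little in pair 4 (18.7 to 18.9%), and the ATP5MC1 share was lower. The ATP5MC3 share was lower in pairs 1 to 3 and higher in pair 4. These shifts in share were not tested.

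The remaining tested genes placed in complex V by name, ATP5IF1 and ATP5S, fell as well. ATP5IF1 (ENSG00000130770, chr1:28236109-28246906), the inhibitor that blocks ATP hydrolysis when the gradient collapses, was at 154, 105, 281 and 206 CPM in control libraries and 109, 65.6, 142 and 161 CPM in treated libraries. Its change was -0.63 ± 0.15 (adjusted p = 0.00570). ATP5S, coupling factor B, had 37.6, 32.7, 44.3 and 32.5 CPM in control libraries and 28.4, 22.6, 29.5 and 29.5 CPM in treated libraries. The 2 groups of ATP5S did not overlap, and its change was -0.42 ± 0.14 (adjusted p = 0.0415). The readthrough gene ATP5MF-PTCD1 (16 counts) and ATP5MGL (13 counts) were not tested.

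UQCRHL is a near-identical copy of UQCRH on chromosome 1 (chr1:15807169-15809348), and its reads could belong to UQCRH. It was at 7.002, 2.75, 10.8 and 6.49 CPM in control libraries and 2.83, 1.61, 5.76 and 5.90 CPM in treated libraries, a change of -0.78 ± 0.21 (adjusted p = 0.0146) that followed UQCRH. By the authors' FPKM it gave 1.06 ± 0.11% of the sum of both in control libraries and 0.96 ± 0.08% in treated libraries. Rows annotated as pseudogenes under the names of these subunits numbered 95 and held 160 to 289 counts per library in all. Exons of another gene cover more than 10% of the exon length of 14 tested subunits. Among them are COX8A (AP000721.1, 34.5%) and ATP5PO (AP000311.1, 19.6%), where the other gene is on the same strand. ATP5F1E (TUBB1, 23.2%), UQCRQ (GDF9, 20.8%) and ATP5PF (GABPA, 20.2%) overlap a gene on the other strand.

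Per length, the subunits of each complex stood at different levels in control cultures. The member of highest mean in the authors' FPKM was SDHD in complex II (79.9), UQCRH in complex III (289), COX5B in complex IV (235) and ATP5F1C in complex V (321). Medians over the tested subunits were 33.0, 71.1, 87.2 and 49.0 FPKM for complexes II, III, IV and V in control libraries and 26.3, 53.4, 50.8 and 29.9 FPKM in treated libraries. The lowest tested members were COX7A1 (0.82), COX6B2 (1.15), UQCRHL (3.09) and ATP5S (3.22), and SDHA (7.22) in complex II. The length used by the authors counts every annotated exon of a gene. It was 5.36 times the longest coding transcript for ATP5PD and 4.26 times for ATP5MC1, against 1.04 times for SDHC, whose 14160 bases are the longest of the 46.

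**Figure D4:**
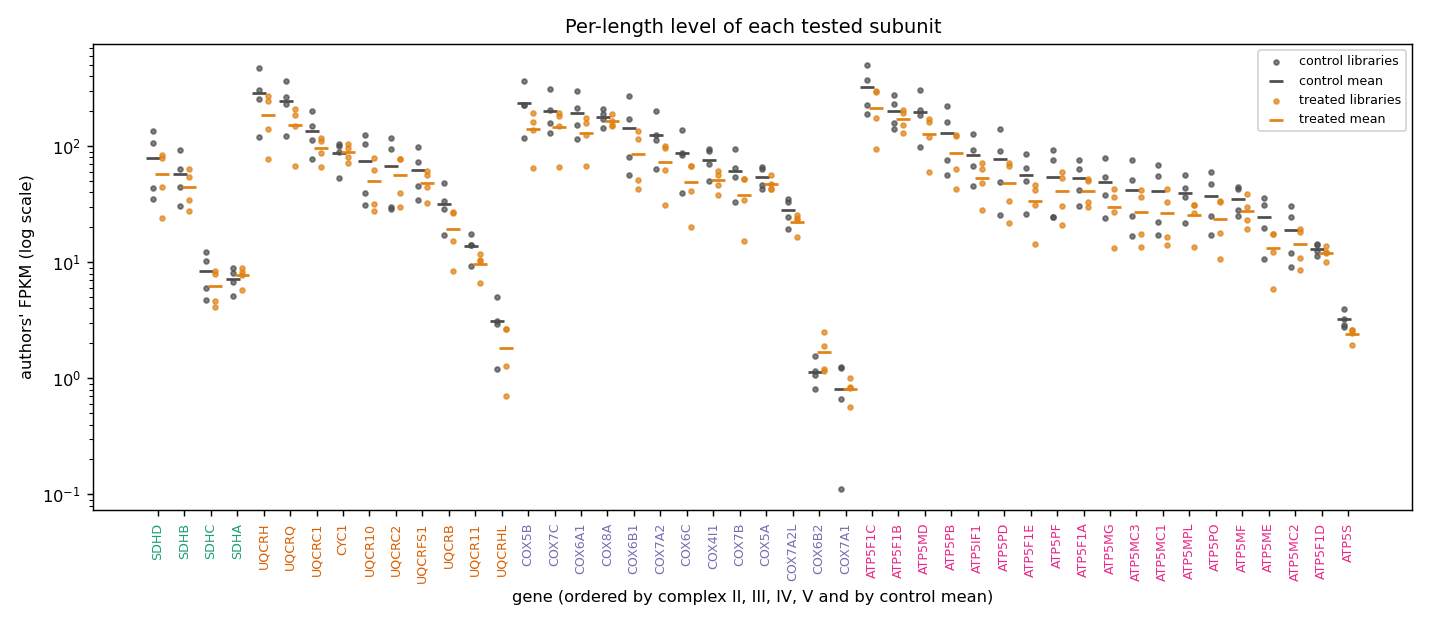
Authors' FPKM (vertical axis, log scale) of each tested subunit in 4 control and 4 treated libraries, with a bar for each group mean, ordered by complex and by control mean. ATP5F1C, UQCRH and COX5B lead their complexes, and COX7A1, COX6B2, UQCRHL and ATP5S are the only tested members below 5 FPKM in the mean of both groups.

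Short genes were lower after treatment across the whole table, and most of these subunits are short. Their median gene length was 2538.5 bases against 4325 bases over all tested genes, and the median of the longest coding transcript was 1381.5 against 2967 bases. Spearman's rho of the fitted change with gene length was 0.14 across the 46 subunits and 0.27 across all 17413 genes, as a description over genes, which share the same libraries and are not independent replicates. By pair the rho over all genes was 0.24, 0.30, 0.21 and 0.01 in pairs 1 to 4, near 0 in pair 4, where the subunits changed least, and smaller in pair 3, where they changed most, than in pairs 1 and 2. In classes of transcript length, subunits below 1000 bases had a median of -0.59 with 12 of 16 lower, against -0.23 and 12.6% lower among all genes of that class. At 1000 to 2000 bases the values were -0.46 with 7 of 16 lower against -0.16 and 11.9%, and at 2000 to 4000 bases -0.30 with 4 of 9 against -0.03 and 6.63%. From 4000 bases up they were -0.42 with 3 of 5 lower against 0.14 and 2.85%. That last class includes SDHC (13566 bases), ATP5S (10212 bases) and UQCRB (5575 bases). These are lengths of the longest annotated coding transcript, and which transcripts were expressed was not determined, so a gene may stand in too long a class.

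After the trend with gene length was removed in each library, 23 of the 46 subunits were lower and 0 higher with the block (6.74% of all genes lower and 5.86% higher), and the median change was -0.45. Of the 26 earlier calls 22 were kept, ATP5PB, COX6A1, UQCR10 and UQCR11 no longer passed, and SDHC passed (-0.56, adjusted p = 0.0117). With the longest coding transcript as the length, 18 were lower and COX6B2 was higher (5.92% of all genes lower and 4.99% higher), with a median of -0.39. Both corrections and the uncorrected fit called 16 subunits in common, among them UQCRB, UQCRQ, COX6C, COX7A2, COX5B, ATP5ME, ATP5MG, ATP5F1E and ATP5PO. The source of the length trend was not tested.

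**Figure D5:**
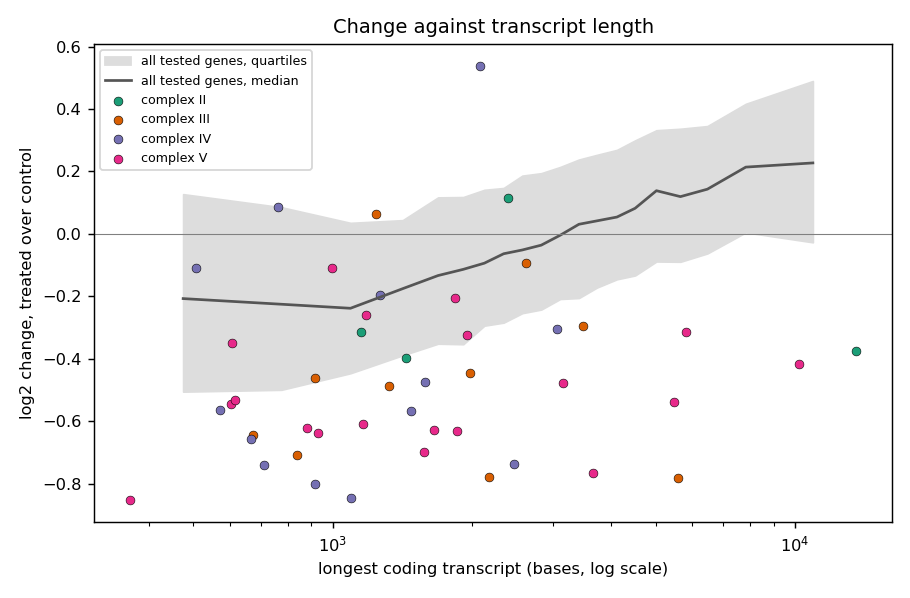
Fitted log2 change with the block (vertical axis) against the length of the longest coding transcript (horizontal axis, log scale) for the 46 tested subunits, coloured by complex, over the median and quartiles of all tested genes in bins of length. The line of all genes rises from below 0 among short transcripts to above 0 among the longest, and most subunits lie below the shaded quartiles at their own length.

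Counts of calls among genes that assemble or serve these complexes were smaller. Over all genes 6.97% fell and 7.51% rose with the block, and 3.07% were lower with the term for the sets of replicates. Lists with only 1 or 2 calls are too short to be read as a result about the list. Of 25 genes for complex IV assembly and copper delivery, 5 fell and 0 rose, led by COX17, the copper carrier (64.8 ± 27.7 CPM in control libraries and 38.1 ± 18.2 CPM in treated libraries, SD, n = 4, change -0.81, adjusted p = 0.00116), and COA3 (-0.57, adjusted p = 0.00716). In that list 1 gene was higher with the block after correction for gene length (COA7, adjusted p = 0.0493, named after its values were seen), 1 with total counts and 1 in DESeq2, and 1 was lower with the term that set replicates 1 and 2 apart (COA3, adjusted p = 0.0471). Of 6 complex III assembly genes 1 fell, UQCC3 (-0.47, adjusted p = 0.0227), and of 4 each for complexes II and V 0 passed. Of 3 complex IV partners outside the naming rule, HIGD1A fell (486 ± 172 to 309 ± 104 CPM, change -0.66, adjusted p = 0.00581). Of 14 genes for ubiquinone synthesis, cytochrome c and electron transfer flavoproteins, 2 fell, COQ2 (-0.50, adjusted p = 0.0197) and COQ7 (-0.44, adjusted p = 0.0336). With the term for the sets of replicates COX17 (adjusted p = 0.0550), HIGD1A (0.0613), COQ2 (0.0807), COQ7 (0.0772) and UQCC3 (0.149) did not pass, and UQCC3 did not pass after correction for gene length either (0.0624). Medians of these lists lay between -0.18 and -0.36, and their difference from the subunits was not tested.

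Of 9 tested regulators of nuclear respiratory genes, 0 fell and 2 rose: the coactivators PPARGC1B (5.33 ± 1.48 to 8.29 ± 2.50 CPM, change 0.63, adjusted p = 0.0274) and PPRC1 (39.2 ± 17.3 to 51.6 ± 17.3 CPM, change 0.45, adjusted p = 0.0458). Over all genes 6.97% fell and 7.51% rose in that fit. Neither coactivator passed with the term that set replicates 1 and 2 apart (adjusted p = 0.0654 and 0.146) or with the correction for gene length (0.108 and 0.0874). DESeq2 with the block called 1 of the 9 higher, and the correction for transcript length gave 0 higher and 1 lower. PPARGC1A was not tested because of low counts.

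Complex I, the entry point for electrons from NADH, moved alongside: 16 of 37 tested nuclear genes named as its subunits fell and 0 rose, with a median of -0.42. Over all genes 6.97% fell and 7.51% rose. Without the block 0 of the 37 passed, and with the term for the sets of replicates 9 were lower. After correction for gene length 16 were lower, with a median of -0.30. These 37 include NDUFA4, which did not pass and is also counted above among the complex IV partners. The summed level of the nuclear complex I genes changed by -26.8, -27.2, -42.6 and -16.0% in pairs 1 to 4, beside -28.2, -27.1, -42.4 and -15.1% for complexes II to V. The 6 subunits of complexes III, IV and V that are encoded in mitochondrial DNA shared no direction across the pairs, and 0 of 6 passed. With total counts in place of TMM, 1 of the 6 was higher (9.62% of all genes). The TMM-scaled sum of the 6 changed by 81.6, 51.4, -14.3 and -18.1% in pairs 1 to 4. It went opposite to the nuclear sums in pairs 1 and 2 and downward with them in pairs 3 and 4, and this difference was not tested. MT-CO1, the catalytic subunit of complex IV, averaged 4800 ± 2104 CPM in control libraries and 5935 ± 1480 CPM in treated libraries (change 0.41, adjusted p = 0.220). All mitochondrial transcripts took 1.23% of counts in control 1, whereas the remaining 7 libraries had 2.21 to 3.28%.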

How the data were processed

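RNA of 8 SV-HUC1 cultures was sequenced. The submitters' processing notes name the build GRCh38.p13, the aligner HISAT2 (2.0.5), the counter featureCounts (1.5.0-p3) and DESeq2 (1.20.0). Whether counting used strand was not given in the sources used here. The deposited counts are whole reads per gene, not normalised. The deposited gene length in bases is that of all annotated exons. The authors' FPKM values divide by this length and were used only for levels between genes. The authors' deposited comparison table holds size-factor-normalised signal, a log2 fold change and p-values per gene.

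The 17413 genes that passed filterByExpr were tested by edgeR's quasi-likelihood method (version 4.0.16, R 4.3.3) with TMM factors, at a Benjamini-Hochberg adjusted p below 0.05. The fit with the group as its only term called no gene and is given beside a fit blocked on the replicate number. That block was used because the deviations of same-numbered libraries from their group means correlated at 0.532, 0.678, 0.590 and 0.503, over the minimum of 0.1. Libraries of different number within replicates 1 and 2, or 3 and 4, also correlated, at 0.443 to 0.652. Treated 4 correlated more with control 3 (0.652) than with control 4 (0.503). Passing the minimum therefore cannot tell a match by number from a division into replicates 1 and 2 against 3 and 4. The labels do not say that a number marks a shared day or batch. Changes are log2 values with standard errors derived from the F statistic, and CPM values use TMM. Log differences by pair used a prior count of 2. For the length correction, a trend of each library on log length (span 0.3) was removed through offsets, with deposited lengths or with the longest coding transcript of GENCODE. Alternatives were DESeq2 1.42.0, RLE factors, total counts, no filter, a term for replicates 1 and 2 against 3 and 4, and leaving out libraries or replicate numbers. One alternative, that term together with the length correction, was added after the data were seen. Named subunits were, per complex, the 3 of smallest blocked p that averaged 5 CPM or more and kept 1 direction in 4 pairs, the largest change of opposite sign, the paralog families and ATP5IF1, and up to 2 called genes per direction of each pathway list. Other subunits are named for completeness. The members and lists were chosen with earlier results of these data known. Promoter windows are RefSeq's (GRCh38.p14), 250 bases before each start.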

Additional observations from a re-analysis of the deposited data

How the results depend on the processing

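The replicate block decided the calls: without it 0 of 46 subunits were lower and 0 higher, in edgeR and in DESeq2 alike, and with the replicate block 26 were lower. In the fit without block, leaving out single libraries moved the median change between -0.73 and -0.25 over all subunits, between -0.57 and -0.0673 in complex II, between -0.74 and -0.28 in complex III, between -0.73 and -0.30 in complex IV and between -0.81 and -0.25 in complex V. The value nearest 0 was always that without control 3. No called change turned its sign under an alternative. In the blocked fit, the term for replicates 1 and 2 against 3 and 4 left 7 subunits lower (complex III 1, IV 3, V 3), and with the length correction added to that term also 7 (complex II 1, III 1, IV 2, V 3). Total counts gave 18 lower and 1 higher, with 3 lower in complex III. The correction for transcript length gave 18 lower and 1 higher, with 1 in complex II and 3 in complex III, and that for gene length 1 in complex II. DESeq2 with the block gave 31 lower, 2 of them in complex II. Without single replicate numbers the blocked fit called 11 to 23 subunits lower, 2 to 5 in complex III, 4 to 7 in complex IV and 5 to 11 in complex V, with 11 without replicate 3 and 15 without replicate 1. RLE factors kept 26 and no filter kept 22. The causes of these shifts were not tested, though each leave-one-out fit has fewer libraries. Depth limits COX7A1, whose change has an SE of 0.44, and COX4I2, COX8C, COX7B2, ATP5MGL and ATP5MF-PTCD1, which had 6 to 16 counts over all libraries, and at this depth no change was detectable in them.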
